A study of Mus musculus with 18 samples.

Results

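The nuclear genes of respiratory complexes II, III, IV and V were followed in the mouse left ventricle after coronary ligation. Genes were taken by symbol, with succinate dehydrogenase genes Sdha to Sdhd, the Uqcr genes and Cyc1, the Cox4 to Cox8 genes and the Atp5 genes, provided that their mean count over the 18 libraries was at least 20. The pattern matched 54 of the 30583 genes in the count table, and 49 of these met the minimum: 4 of complex II, 9 of complex III, 17 of complex IV and 19 of complex V. All 49 also passed the filter on low counts that left 16311 genes for testing. Just inside the minimum were 3 processed pseudogenes, Cox6c2 with a mean count of 29.4 and Atp5k-ps2 and Atp5l2-ps with 59 each. Just outside it was the pseudogene Atp5l-ps1 with 9.67. The other 4 genes left out (Cox7b2, Uqcrh-ps2, Atp5l-ps2 and Atp5c1-ps) had lower means.

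RNA was sequenced from 18 male C57BL/6JR mice aged 12 weeks, 3 in each of 6 groups and 1 library per mouse. In 5 groups the left anterior descending coronary artery was tied under pentobarbital anaesthesia, which produces a myocardial infarction, and the mice were killed under isoflurane, either 10 min or 1, 6, 24 or 72 h later. The sham group (0 h) was operated on in the same way, with the suture placed and left untied, and no group was without surgery. RNA came from the infarcted region of the left ventricle; the labels also give cardiomyocytes as the cell type, but no step that separates cells is described, so the libraries are treated as whole tissue.

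Complexes II, III and IV of the inner mitochondrial membrane carry electrons from succinate and from reduced ubiquinone to oxygen, and complexes III and IV pump protons as they do so. Complex V, the ATP synthase, uses the proton gradient to make ATP, which beating cardiomyocytes need in large amounts. Some subunits of complex IV exist as a heart and skeletal muscle isoform and a ubiquitous isoform encoded by separate genes: Cox6a2 and Cox6a1, Cox7a1 and Cox7a2, and Cox8b and Cox8a, with the heart gene first. Cox4i2 is a minor isoform of Cox4i1 that is known from lung and from hypoxic cells. On build GRCm38 the genes are spread over the genome, with Cox6a2 at chr7:128205435-128206387, Cox4i1 at chr8:120668222-120674207 and Cox4i2 at chr2:152754173-152765037.

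The sequences just upstream of the isoform genes are shown first, because the isoforms of 1 subunit behaved differently after ligation. They are RefSeq promoters of mouse build GRCm38.p6, which held an entry for 33 of the 49 members; Sdhc, Cyc1, Uqcrb, Uqcrc2, Uqcrq, Cox4i1, Cox4i2, Cox6a2, Cox6c, Cox6c2, Atp5a1, Atp5f1, Atp5k-ps2, Atp5l2-ps, Atp5mpl and Atp5s had none. Each run ends before the first annotated transcribed base and reads 5′ to 3′ on the strand of the gene, with every CpG dinucleotide in capitals. The runs lie at chr7:30183921-30184143 (plus strand) for Cox7a1, chr9:79759879-79760103 (minus strand) for Cox7a2, chr7:140900447-140900696 (minus strand) for Cox8b, chr19:7217617-7217866 (minus strand) for Cox8a and chr5:115348982-115349208 (minus strand) for Cox6a1.
Cox7a1: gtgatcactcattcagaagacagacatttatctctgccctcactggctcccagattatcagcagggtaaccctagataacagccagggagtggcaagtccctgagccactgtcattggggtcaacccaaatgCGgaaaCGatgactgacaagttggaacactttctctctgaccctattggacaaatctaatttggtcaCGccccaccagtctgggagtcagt
Cox7a2: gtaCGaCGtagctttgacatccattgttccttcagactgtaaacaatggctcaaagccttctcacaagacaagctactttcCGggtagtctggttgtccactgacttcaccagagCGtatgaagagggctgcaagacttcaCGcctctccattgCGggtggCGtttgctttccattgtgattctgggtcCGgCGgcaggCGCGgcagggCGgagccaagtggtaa
Cox8b: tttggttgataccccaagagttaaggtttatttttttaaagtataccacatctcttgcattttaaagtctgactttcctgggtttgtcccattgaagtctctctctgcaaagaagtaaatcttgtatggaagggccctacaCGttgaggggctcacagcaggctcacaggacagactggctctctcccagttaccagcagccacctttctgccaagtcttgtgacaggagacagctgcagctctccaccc
Cox8a: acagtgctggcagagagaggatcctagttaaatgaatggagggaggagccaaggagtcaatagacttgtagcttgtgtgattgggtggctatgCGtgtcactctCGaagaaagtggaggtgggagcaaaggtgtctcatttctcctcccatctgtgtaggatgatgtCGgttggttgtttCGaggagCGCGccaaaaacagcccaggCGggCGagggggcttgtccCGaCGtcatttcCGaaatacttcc
Cox6a1: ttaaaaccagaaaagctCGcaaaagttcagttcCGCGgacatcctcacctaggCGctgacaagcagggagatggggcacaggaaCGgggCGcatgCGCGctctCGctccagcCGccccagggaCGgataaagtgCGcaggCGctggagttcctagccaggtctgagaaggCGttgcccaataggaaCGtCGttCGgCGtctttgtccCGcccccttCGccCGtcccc
The 2 heart isoform promoters held fewer CpGs than those of the 3 ubiquitous isoforms. There were 3 CpGs upstream of Cox7a1 and 1 upstream of Cox8b, against 12 for Cox7a2, 11 for Cox8a and 21 for Cox6a1. CpGs were counted after the expression values had been seen. The runs of Cox7a1, Cox7a2 and Cox6a1 hold 223, 225 and 227 bases. Their full windows of 250 bases before the RefSeq start reach past the annotated start of the gene. Over the whole 250 bases, the 33 members had a median of 14 CpGs and all 27025 genes with an entry a median of 6. At most 5 CpGs were found for 4 of the 33 members (Uqcr10, Cox7a1, Cox7b and Cox8b) and for 49.5% of all genes. At 72 h these 4 genes differed from sham by log2 values of -1.41, -2.63, -1.53 and -2.18. Whether the number of CpGs went with the change after ligation was not tested.

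Motifs were searched on both strands of the same 250 bases as a description of the letters, not of binding. The motif of NRF1, a regulator of nuclear respiratory genes, stood in 7 of the 33 members (21.2%) and in 4.23% of all genes. The motif CCGGAAG, which ETS factors such as GABP recognise, stood in 9 members (27.3%) and in 7.83% of all genes. The Cox6a1 window held 2 NRF1 matches, GCGCATGCGC and GCGCAGGCGC, both within the run printed above. It also held 1 ETS match, CTTCCGG, which began 16 bases before the RefSeq start. That match lies past the end of the printed run, among bases annotated as transcribed. None of the windows of Cox7a1, Cox7a2, Cox8b and Cox8a matched either motif, nor those searched for ERR (TNAAGGTCA), MEF2 or CRE (TGACGTCA). These last 3 each stood in 1 of the 33 members, against 1.30%, 3.70% and 1.77% of all genes. The E-box letters CANNTG stood in 63.6% of members and 69.3% of all genes, the SP1 letters GGGCGG in 27.3% and 35.4%, and ACGTG, from the hypoxia response element, in 27.3% and 18.5%. ACGTG lies within an E-box that reads CACGTG, so these 2 can overlap.

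Library totals ran from 18.2 to 25.1 M counts (M for mega). Levels below are counts per M counts (CPM) scaled by TMM, a method that sets library scale by the genes that change least, and are listed in the order of replicates 1, 2 and 3. A gene was called when its edgeR quasi-likelihood p-value, corrected over all 16311 genes (Benjamini-Hochberg), was under 0.05; fold changes are on the log2 scale with their standard error (SE). Scaling by library totals in place of TMM raised the all-gene median of log2 fold changes from 0.03 to 0.61 at 72 h and from 0.01 to 0.20 at 24 h, so directions below are relative to TMM scaling unless said otherwise. Markers of other cells moved over the same time course. Summed macrophage markers (10 genes, none at 0 in any group) stood at 314 to 367 CPM in sham, 679 to 812 at 24 h and 4061 to 5283 at 72 h, and summed fibroblast markers (8 genes, none at 0) at 804 to 915, 929 to 1402 and 12445 to 16056. Summed neutrophil markers (8 genes, none at 0) stood at 5.37 to 7.62 CPM in sham, 274.8 to 946 at 6 h, 109 to 995 at 24 h and 72.6 to 87.2 at 72 h. The part of these cells in the results below was not tested. In tissue RNA, fewer cardiomyocytes and less of a transcript per cardiomyocyte cannot be told apart.

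The respiratory genes were not called different from sham through 6 h, and nearly all fell at 24 h and 72 h. At 10 min, 1 h and 6 h no member was called (0 of 49 each, edgeR quasi-likelihood test), beside 0.0736%, 0.294% and 28.4% of all genes. At an unadjusted p under 0.05 the counts were 0, 0 and 1; DESeq2 called 0 at each of these times. The members' median log2 fold change was -0.03 at 10 min, -0.09 at 1 h and 0.03 at 6 h. At 24 h, 43 members were called lower and 0 higher, with a median of -0.58, beside 20.2% of all genes called lower. Library totals gave 35 lower and 0 higher at 24 h, with a median of -0.39. At 72 h, 48 were called lower and 0 higher, with a median of -1.58, beside 32.2% of all genes called lower; library totals gave 42 lower and 1 higher with a median of -0.999. All 3 libraries lay below all 3 sham libraries for 44 members at 24 h (25.7% of all genes) and for 48 at 72 h (36.5%). The F test over the 5 times called 48 members, beside 78.4% of all genes. Among the 46 protein-coding members, 42 were called lower at 24 h and 45 at 72 h.

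Most members fell at each late step. From 6 h to 24 h, 42 members fell and 0 rose, beside 13.7% of all genes falling, with a median of -0.58; a fit of the 6 libraries of these groups alone called 2, and library totals called 19. Markers of brown fat and of atria also moved at these times. Summed brown fat markers stood at 683 to 731 CPM in sham, 1190 to 1472 at 6 h and 637 to 716 at 24 h. Of the 6 genes 2 were tested, and 1 of them was called higher at 6 h. In sham and at 24 h most of the sum was Fabp4, which endothelium expresses too, with means of 683 and 650 CPM. Cidea had means of 29.4 and 26.2 CPM in these groups. Summed atrial markers stood at 91.2 to 207 CPM in sham, 114 to 541 at 6 h and 562 to 809 at 24 h. Of 3 tested, 2 were called higher at 6 h, and from 6 h to 24 h 2 were called lower and 1 higher. In sham and at 24 h most of the sum was Nppa, with means of 145 and 668 CPM. Myl7 had means of 0.182 and 0.104 CPM in these groups, Myl4 had 1.57 and 2.02, and Sln had 0 counts at 24 h. The part of these tissues in the 6 h and 24 h values was not tested. From 24 h to 72 h, 45 members fell and 0 rose, beside 26.1% of all genes falling, with a median of -1.01. Libraries of a group did not fall equally. Members summed to 37226, 31202 and 25919 CPM in the 24 h libraries and to 17974, 13301 and 13619 at 72 h, against 47618, 48172 and 44717 in sham. Replicate 3 at 24 h was the lowest of its group, and also had the highest neutrophil marker sum there (995 CPM) and the lowest level of contractile genes; 36 members were called at 24 h without it. As a share of all counts, members made up 4.34% ± 0.0464 in sham, 4.15% ± 0.386 at 6 h, 3.33% ± 0.507 at 24 h and 2.08% ± 0.316 at 72 h (SD, n = 3).

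**Figure D1:**
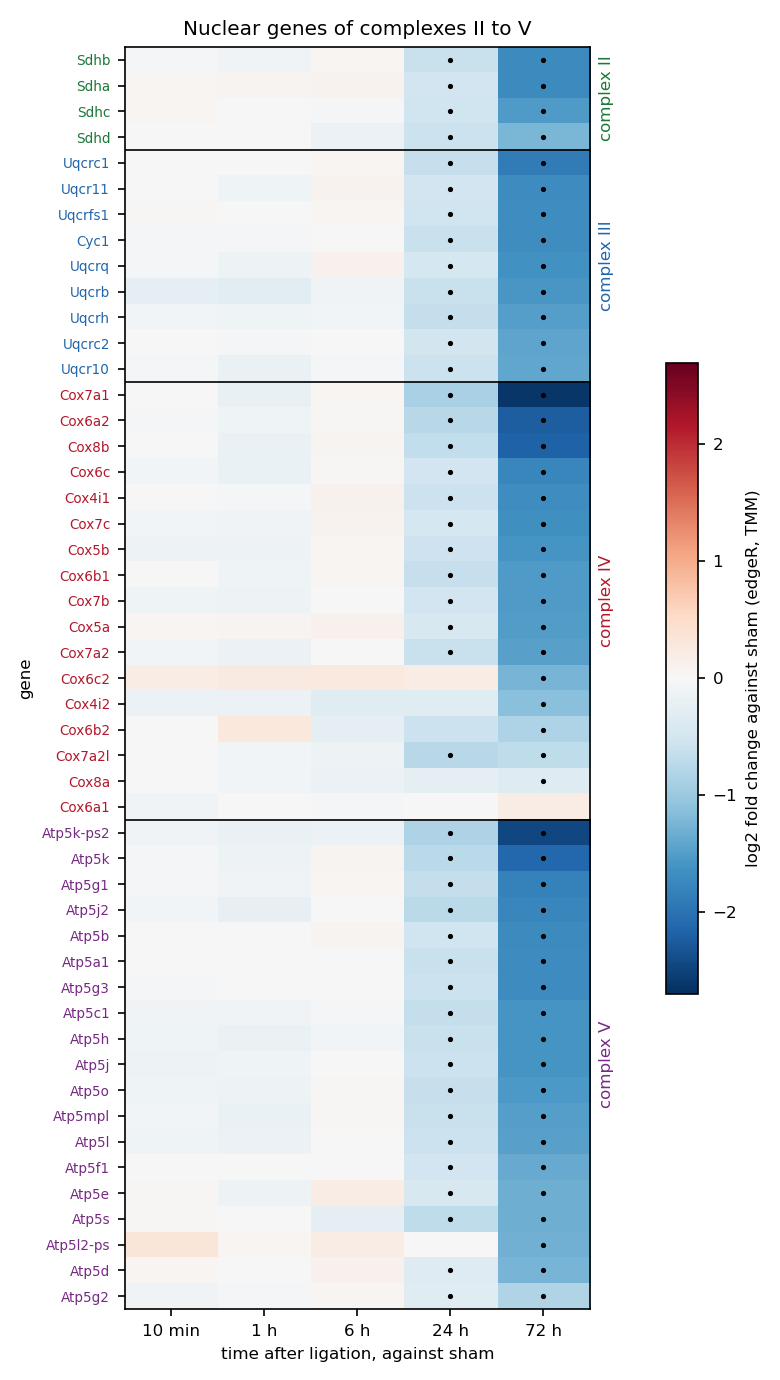
Log2 fold change of each of the 49 members against sham (rows, grouped by complex and ordered by the 72 h value) at 5 times after ligation (columns); colour gives the fold change and a dot marks an edgeR adjusted p under 0.05. The first 3 columns hold no dot, the 24 h column 43 and the 72 h column 48, all of them lower than sham.

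Complex II oxidises succinate and is the only complex here whose subunits are all encoded in the nucleus. All 4 of its genes fell at 24 h and at 72 h, with a 72 h median of -1.63. Sdha, the flavoprotein subunit, stood at 1762, 1889.7 and 1732 CPM in sham, 1783 to 1999 in the 9 libraries from 10 min to 6 h, 1613, 1099.7 and 1062 at 24 h and 640.5, 497 and 506 at 72 h. Its 72 h libraries all lay below its 24 h libraries, which all lay below sham (72 h log2 fold change -1.71 ± 0.145, adjusted p = 1.04e-08). Sdhb, the iron-sulfur subunit, went from 882, 880.2 and 802 CPM in sham to 670.3, 546 and 475 at 24 h and 319, 230.1 and 233 at 72 h (-1.71 ± 0.143, adjusted p = 8.64e-09). Of the membrane anchors, Sdhc stood at 427, 397 and 397 CPM in sham and 161, 121 and 138 at 72 h (-1.54 ± 0.127, adjusted p = 7.4e-09). The other anchor, Sdhd, stood at 431, 441 and 439 CPM in sham and 212, 179 and 169.9 at 72 h (-1.22 ± 0.120, adjusted p = 6.1e-08), the smallest fall of the 4. No anchor library at 72 h overlapped sham.

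Complex III passes electrons from ubiquinol to cytochrome c. All 9 of its genes fell at 24 h and at 72 h, with 72 h values between -1.88 and -1.41 and a median of -1.62. The largest fall was in Uqcrc1, a core protein of the matrix side, from 1105, 1107 and 1062 CPM in sham to 833, 716 and 589 at 24 h and 378, 240.1 and 272 at 72 h (-1.88 ± 0.150, adjusted p = 5.41e-09). Uqcrfs1, the Rieske iron-sulfur protein, stood at 922, 951 and 911 CPM in sham, 853 to 1002 from 10 min to 6 h, 779, 623 and 522 at 24 h and 326, 271 and 271 at 72 h (-1.68 ± 0.128, adjusted p = 3.02e-09). The groups were separate at each late step for both genes. Among the small subunits, Uqcr10 stood at 518, 526 and 452 CPM in sham and 236, 148 and 180.1 at 72 h (-1.41 ± 0.163, adjusted p = 5e-07). Uqcrb stood at 629.9, 651 and 587 CPM in sham and 270.3, 209 and 146 at 72 h (-1.58 ± 0.173, adjusted p = 2.44e-07). Replicate 1 was the highest of the 72 h libraries for both small subunits, still below every sham library.

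Complex IV, cytochrome c oxidase, had the widest range among its own genes. At 24 h 12 of its 17 genes, which include the pseudogene Cox6c2, fell and at 72 h 16. The 72 h values ran from -2.63 to 0.19 with a median of -1.53. Its heart isoforms were at one end of this range and its ubiquitous isoforms Cox8a and Cox6a1 at the other.

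The heart isoforms had the largest falls in complex IV. Cox7a1, a small membrane subunit, stood at 1219, 1135 and 1026 CPM in sham, 947 to 1271 from 10 min to 6 h, 739.6, 647 and 468 at 24 h and 247, 147 and 152 at 72 h. Its 72 h level was 6.19-fold below sham (log2 -2.63 ± 0.192, adjusted p = 1.9e-09), the largest fall among the 49. Cox6a2, a subunit that binds adenine nucleotides, went from 1867, 1849.7 and 1760.2 CPM in sham to 1266, 1114 and 880.1 at 24 h and 472, 352 and 341 at 72 h, 4.70-fold lower (-2.23 ± 0.166, adjusted p = 2.25e-09). Cox8b, a very small membrane subunit, went from 1183, 1271 and 1149 CPM in sham to 921, 765 and 578 at 24 h and 359, 219 and 219 at 72 h, 4.52-fold lower (-2.18 ± 0.184, adjusted p = 1.02e-08). In all 3 genes replicate 3 was the lowest 24 h library and replicate 1 the highest 72 h library, and the sham, 24 h and 72 h groups did not overlap. These isoforms are also known from skeletal muscle and brown fat. Summed skeletal muscle markers (7 genes, with Ckm, which the heart expresses too) stood at 1408 to 1444 CPM in sham and 452 to 644 at 72 h, and Ckm went from a mean of 1145 CPM to 216. Of the 4 tested, Ckm was called lower (-2.40) and Tnnt3 higher (3.43), while Acta1 (0.14, adjusted p = 0.639) and Tnni2 (0.32, adjusted p = 0.337) were not called; library totals gave 3 higher and 1 lower. Summed brown fat markers (6 genes, with Fabp4, which endothelium expresses too) stood at 683 to 731 CPM in sham, 1190 to 1472 at 6 h and 357 to 421 at 72 h, and Ucp1 had 0 counts in all sham libraries. The part of these tissues was not tested.

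The ubiquitous partners moved less, and not alike. Cox7a2 stood at 417, 435 and 370.3 CPM in sham, 304, 286 and 217 at 24 h and 175, 136 and 131 at 72 h, and fell to an extent near the members' median (-1.47 ± 0.133, adjusted p = 2.39e-08). Cox8a stood at 157, 144 and 154 CPM in sham, 132 to 168 from 10 min to 6 h, 129, 146 and 110.1 at 24 h and 128, 113 and 116 at 72 h. Its 72 h libraries all lay below sham, but its 24 h libraries overlapped sham. The 72 h difference was -0.35 ± 0.101, adjusted p = 0.00479 under TMM, and 0.23, adjusted p = 0.0632, under library totals, where the sign turned. Cox6a1 was the only member not called at 72 h. It stood at 237, 219.9 and 247 CPM in sham, 202 to 248 from 10 min to 6 h, 221, 264 and 219 at 24 h and 282, 267 and 256 at 72 h, where all 3 libraries were above sham. The difference was 0.19 ± 0.0940, adjusted p = 0.0767; it was called higher with library totals (0.78), with DESeq2 (0.22, adjusted p = 0.0274) and when each library had to hold 10 counts (0.26, adjusted p = 0.0205).

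**Figure D2:**
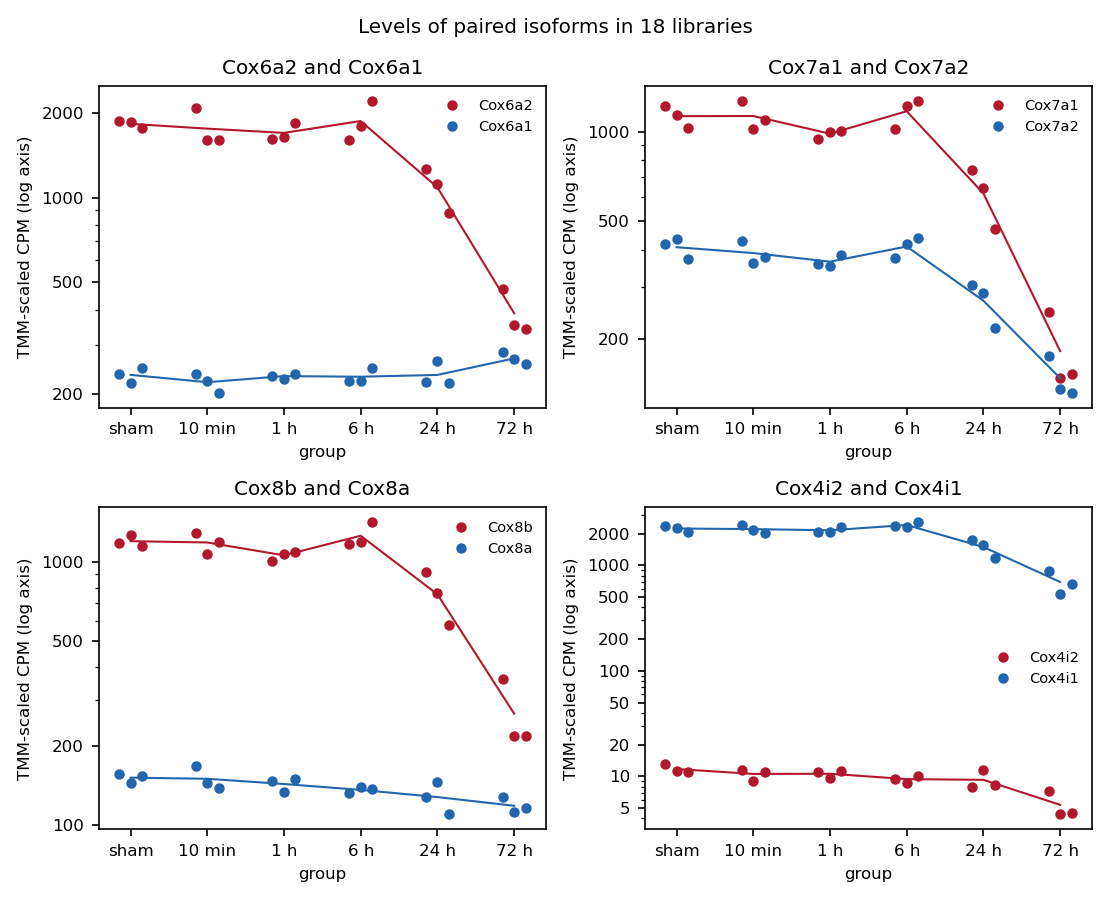
TMM-scaled CPM (log axis, a separate range in each panel) of the paired isoforms in each of 18 libraries, by group; points are libraries, lines join the means of 3 mice, red is the heart isoform (Cox4i2 in the last panel) and blue the ubiquitous one. From 24 h the red points drop towards the blue ones in the first 3 panels, while Cox6a1 stays between 202 and 282 CPM in every library.

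Levels of different genes were compared on the FPKM scale, which divides by gene length and by the library total. In sham the 3 heart isoforms had the 3 highest FPKM means of the 49, with Cox8b at 3092 ± 100.2 FPKM, Cox6a2 at 2489 ± 24.6 and Cox7a1 at 1950.0 ± 126 (SD, n = 3). This rank depends on the gene lengths behind the FPKM values, which were 360, 680 and 535 bases for these genes and 4237 for Atp5b. In CPM, which leaves length out, Atp5b (mean 6271), Atp5a1 (5152) and Cox4i1 (2233) stood above all 3 in sham. The partners of the heart isoforms, Cox8a, Cox6a1 and Cox7a2, stood at 259 ± 16.1, 310.4 ± 26.7 and 399.6 ± 21.4 FPKM. At 72 h Cox8b stood at 1023 ± 287 FPKM and Cox8a at 303 ± 15.8. Cox6a2 stood at 793 ± 129 and Cox6a1 at 532 ± 11.1, and Cox7a1 at 471 ± 135 and Cox7a2 at 217 ± 29.6. The heart isoform thus had the higher mean of each pair in both groups, by a smaller margin at 72 h.

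The ratio of 2 isoforms within a library needs no scaling between libraries. For Cox6a2 over Cox6a1 the log2 ratio of counts was 2.98, 3.07 and 2.83 in the sham libraries, 2.80 to 3.15 from 10 min to 6 h, 2.52, 2.08 and 2.01 at 24 h and 0.74, 0.40 and 0.41 at 72 h. The ratio thus fell 5.44-fold from sham to 72 h (log2 difference -2.44). For Cox7a1 over Cox7a2 it was 1.55, 1.38 and 1.47 in sham, 1.28, 1.18 and 1.11 at 24 h and 0.50, 0.11 and 0.21 at 72 h, a 2.29-fold fall (-1.19). For Cox8b over Cox8a it was 2.92, 3.14 and 2.89 in sham, 2.84, 2.39 and 2.39 at 24 h and 1.49, 0.96 and 0.91 at 72 h, a 3.63-fold fall (-1.86). In each of these 3 pairs the 24 h libraries lay below sham and the 72 h libraries below those of 24 h. Permutation tests of the 6 groups (F statistic, 100000 permutations, adjusted over 4 pairs) gave adjusted p = 6e-05 for Cox6a2 over Cox6a1 and for Cox7a1 over Cox7a2, and 6.67e-05 for Cox8b over Cox8a. Each time was also compared with sham by an exact two-sided permutation test of 3 against 3, whose smallest possible p is 0.1. At 24 h and 72 h all 3 pairs reached 0.1, or 0.25 adjusted over the 20 such tests, so no single time could pass.

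The Cox4 pair moved the other way. Cox4i2 was low throughout, at 12.98, 11.2 and 10.96 CPM in sham and 7.25, 4.35 and 4.52 at 72 h (-1.13 ± 0.185, adjusted p = 2.96e-05). Cox4i1 stood at 2374, 2266 and 2061 CPM in sham, 1745, 1549 and 1176 at 24 h and 885, 538 and 663 at 72 h (-1.68 ± 0.164, adjusted p = 5.78e-08). Both genes fell, and the log2 ratio of Cox4i2 to Cox4i1 went from -7.51, -7.65 and -7.55 in sham to -7.95, -8.06 and -7.98 at 6 h, -7.78, -7.06 and -7.14 at 24 h and -6.93, -6.95 and -7.19 at 72 h. The 6 h libraries lay below all sham libraries and the 72 h libraries above them, while those of 24 h overlapped sham (6-group permutation test, adjusted p = 0.00217; exact p = 0.1 at 6 h and at 72 h, the smallest possible). On the FPKM scale, which compares genes per length, Cox4i2 stood at 13.8 ± 1.14 in sham and 9.45 ± 2.64 at 72 h, and Cox4i1 at 1335 ± 64.8 and 623 ± 147.

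**Figure D3:**
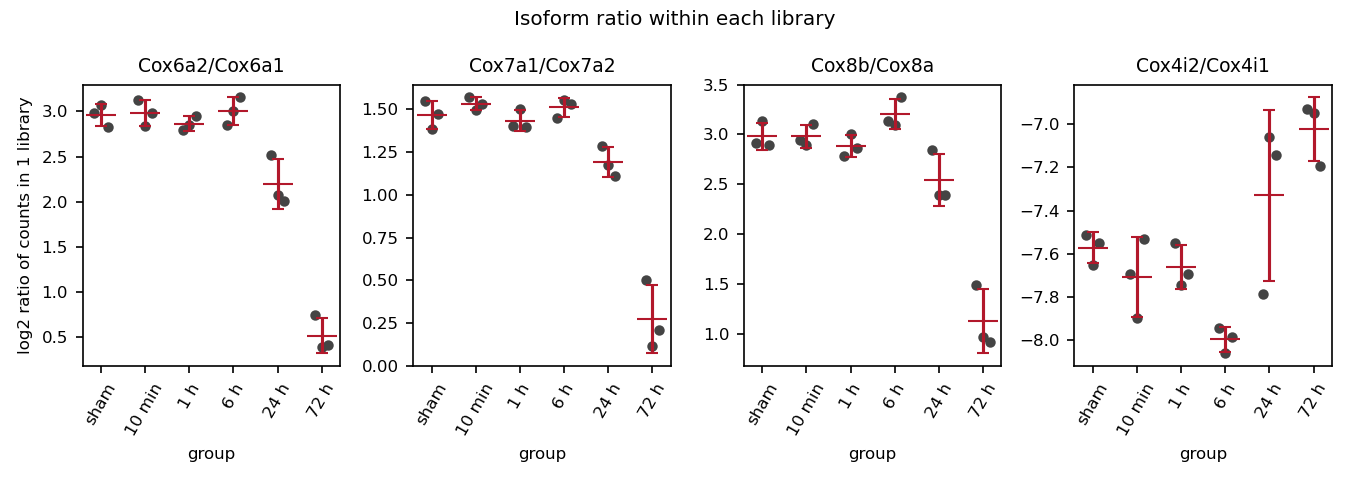
Log2 ratio of the counts of the paired isoforms within each library, by group; grey points are libraries and red bars give the mean ± SD of 3 mice, with a separate axis range in each panel. The first 3 ratios sit near their sham values through 6 h and drop at 24 h and 72 h, and the Cox4i2 to Cox4i1 ratio dips at 6 h and reaches -7.02 at 72 h.

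The remaining complex IV genes Cox5a, Cox5b, Cox6b1, Cox6c, Cox7b and Cox7c fell at both late times, with 72 h values between -1.76 and -1.50. Cox6b2, known mainly from testis, was low, at 4.19, 5.80 and 4.57 CPM in sham and 3.63, 1.92 and 2.58 at 72 h, with no overlap (-0.84 ± 0.262, adjusted p = 0.0085). That call was lost without replicate 2 at 72 h (-0.65, adjusted p = 0.0512) and under library totals (-0.26, adjusted p = 0.39). Cox7a2l, a relative of Cox7a2 that is also on the list of supercomplex factors, is described because of its values. What its product does in mice of this strain was not tested. It stood at 209, 204 and 201 CPM in sham, 143, 127 and 93.7 at 24 h and 135, 113 and 134 at 72 h, and was 1 of 2 members whose fitted level was higher at 72 h than at 24 h (0.07, adjusted p = 0.653). Its fall from sham to 72 h (-0.68 ± 0.118, adjusted p = 5.27e-05) was -0.10, adjusted p = 0.467, under library totals. The pseudogene Cox6c2 had at most 65 counts in any library, and its reads cannot be told apart with certainty from those of Cox6c (-1.25 ± 0.320, adjusted p = 0.00204; adjusted p = 0.0897 under library totals).

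Complex V, the ATP synthase, fell as a whole: 18 of its 19 genes at 24 h and all 19 at 72 h. The 72 h values ran from -2.45 to -0.81 with a median of -1.58. These counts and values include the pseudogenes Atp5k-ps2 and Atp5l2-ps. Its catalytic head genes, named after their values were seen, were among the most abundant members. Atp5b, the beta subunit, stood at 6306, 6428 and 6078 CPM in sham, 5366, 3876 and 3763 at 24 h and 2233, 1725 and 1718 at 72 h (-1.73 ± 0.142, adjusted p = 7.29e-09). Atp5a1, the alpha subunit, stood at 5228, 5268 and 4959.7 CPM in sham, 4157, 3127 and 2896 at 24 h and 1853, 1430.0 and 1486 at 72 h (-1.70 ± 0.137, adjusted p = 6.11e-09). Replicate 1 was the highest library of both late groups, and the sham, 24 h and 72 h groups did not overlap.

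Subunits of the stalk and membrane part showed a wider spread. Atp5h, subunit d of the outer stalk, stood at 1157, 1178 and 1052 CPM in sham, 885, 733 and 627 at 24 h and 432, 351 and 335 at 72 h (-1.60 ± 0.129, adjusted p = 6.06e-09). Atp5k, subunit e of the membrane part, stood at 329.9, 328 and 312 CPM in sham, 222, 216 and 144 at 24 h and 93.00, 64.1 and 66.8 at 72 h, 4.33-fold lower (-2.12 ± 0.154, adjusted p = 1.85e-09). Its fall was close to those of the heart isoforms of complex IV. The pseudogene Atp5k-ps2, at 15 to 94 counts a library, fell by a similar amount (-2.45 ± 0.274, adjusted p = 3.15e-07); how reads were shared between it and Atp5k is not given in the sources used here. Another pseudogene, Atp5l2-ps, stood at 2.48, 3.89 and 2.35 CPM in sham, 1.94, 4.28 and 2.32 at 24 h and 1.64, 0.943 and 0.922 at 72 h (-1.31 ± 0.346, adjusted p = 0.00275), and under library totals its adjusted p was 0.0712.

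The c-ring of ATP synthase is encoded by 3 genes whose products have the same mature protein. Atp5g1 stood at 1718, 1595 and 1577 CPM in sham, 1221, 1082 and 836 at 24 h and 588, 397 and 396 at 72 h (-1.83 ± 0.158, adjusted p = 1.35e-08). For Atp5g3 the levels were 1426, 1397 and 1334 CPM in sham, 1057, 971 and 742 at 24 h and 526, 351 and 408 at 72 h (-1.69 ± 0.149, adjusted p = 1.58e-08). Atp5g2 went from 248, 261 and 247 CPM in sham to 221, 209 and 169 at 24 h and 159.7, 138 and 134 at 72 h, the smallest fall in complex V (-0.81 ± 0.108, adjusted p = 2.95e-06), and its adjusted p was 0.0727 under library totals. Atp5g1 and Atp5g3 were named after their values were seen, and the difference between the 3 genes was not tested.

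A second fit asked how the members stood against other cardiomyocyte transcripts. Each library was scaled by the geometric mean of 12 contractile genes, such as Myh6, Ttn and Tnnt2, which all fell at 72 h under TMM (-2.91 to -1.19). Their geometric mean stood at 4794 to 5160 CPM in sham, 2418 to 3452 at 24 h and 1244 to 1704 at 72 h. On this scale 0 members were called at 6 h, beside 16.3% of all genes, with 7 at an unadjusted p under 0.05. At 24 h 6 members were called higher and 0 lower, beside 63.2% of all genes called higher, with a median of 0.11 against 0.72 for all genes; 11 were called without replicate 2 at 24 h, 14 with calcium handling genes as the scale and 2 with no filter on low counts. At 72 h 22 were called higher and 5 lower, beside 88.8% of all genes called higher and 1.15% called lower. With no filter on low counts 13 were called higher and 3 lower. The median was 0.22 for the members and 1.84 for all genes.

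The 5 members called lower than the geometric mean of the contractile genes at 72 h were Cox7a1 (-0.85 ± 0.119, adjusted p = 9.9e-07), Atp5k-ps2 (-0.65 ± 0.272, adjusted p = 0.0302), Cox6a2 (-0.44 ± 0.104, adjusted p = 0.000507), Cox8b (-0.40 ± 0.117, adjusted p = 0.0031) and Atp5k (-0.33 ± 0.108, adjusted p = 0.00767). These values lie within the spread of the 12 contractile genes themselves, which ran from -1.13 to 0.61 on this scale, with 5 called lower and 6 higher. Under TMM the contractile genes Tcap (-2.91), Myl2 (-2.32) and Myl3 (-2.22) fell beside Cox7a1 at -2.63. With no filter on low counts, Atp5k (adjusted p = 0.0806) and Atp5k-ps2 (adjusted p = 0.0867) were not called. The Atp5k-ps2 call was also lost without replicate 1 or 3 of sham or replicate 1 or 2 at 72 h (-0.66 to -0.48). With 7 calcium handling genes such as Ryr2 in place of the contractile genes, 5 members were called lower and 12 higher. At the other end stood Cox6a1 (2.01 ± 0.135, adjusted p = 5.96e-11), Cox8a (1.45 ± 0.129, adjusted p = 2.02e-09), Cox7a2l (1.12 ± 0.122, adjusted p = 3.39e-08), Atp5g2 (0.999 ± 0.113, adjusted p = 5.7e-08) and Cox6b2 (0.93 ± 0.249, adjusted p = 0.00165). Cox4i2 (0.65 ± 0.179) and Sdhd (0.58 ± 0.124) followed. Summed macrophage and fibroblast markers were higher in the 72 h libraries, as given above, and their part in these values was not tested. Values near 0 included Sdha (0.08 ± 0.137), Sdhb (0.08 ± 0.106), Uqcrfs1 (0.12 ± 0.111), Cox4i1 (0.10 ± 0.0986), Atp5a1 (0.10 ± 0.109) and Atp5b (0.07 ± 0.117), none of which was called.

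**Figure D4:**
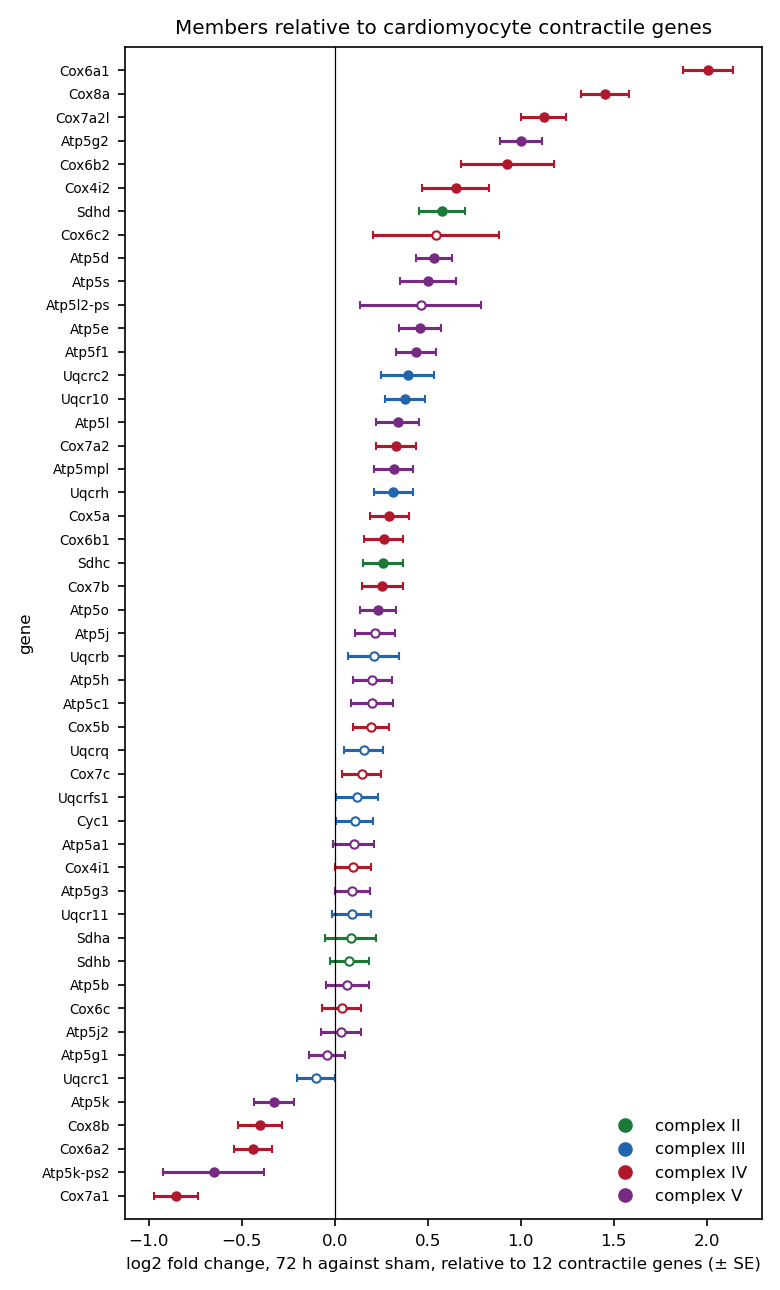
Log2 fold change of each member at 72 h against sham when libraries are scaled by 12 contractile genes (x axis, bars are SE of the edgeR fit); filled points have an adjusted p under 0.05 and colour gives the complex. The 5 filled points left of 0 are Cox7a1, Atp5k-ps2, Cox6a2, Cox8b and Atp5k, and Cox6a1 lies furthest right at 2.01.

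Genes that build or serve the complexes were taken from lists and are described by counts. Of the mitochondrially encoded subunits of complexes III to V, 1 of 6 was called lower at 24 h (median -0.39) and all 6 at 72 h (median -2.35). Among them were mt-Atp6 (-2.85), mt-Cytb (-1.96) and mt-Co1 (-1.88), and their summed level went from 148286 to 173007 CPM in sham to 35285 to 47130 at 72 h. These transcripts were read from a poly(A) selection, which takes up mitochondrial RNA incompletely. Whether the 24 h values of the nuclear and mitochondrial genes differed was not tested.

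Assembly factors had medians closer to 0 than the subunits they serve, a difference that was not tested. At 72 h all 4 factors of complex II were called lower (median -0.92), all 6 of complex III (-0.95), 14 of 20 of complex IV (-0.67) and all 6 of complex V (-0.97), and none was called higher. Library totals gave 3, 3, 6 and 4 called lower, with 4 complex IV factors called higher. The lists held Sdhaf2 (-0.88) and Sdhaf1 (-1.44) for complex II, Uqcc1 (-1.60) and the Rieske chaperone Bcs1l (-1.08) for complex III. For complex IV they held Lrpprc (-1.70), which stabilises mitochondrial messages, and the heme factor Cox10 (-1.59), and for complex V Fmc1 (-1.74) and Tmem70 (-1.05). The supercomplex factors Higd1a (-1.34) and Higd2a (-1.05) fell, which with Cox7a2l made 3 of 3, or 2 of 3 under library totals. Ndufa4, a subunit now placed in complex IV, also fell (-1.67), while Ndufa4l2 was not called (-0.02, adjusted p = 0.918) but was called higher under library totals (0.57, adjusted p = 0.00121).

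The routes into and out of the complexes fell with them. All 14 genes of ubiquinone synthesis, cytochrome c and the electron transfer flavoproteins were called lower at 72 h (median -1.50; 13 under library totals), among them Coq2 (-1.34), Coq6 (-1.36) and Coq9 (-1.88). All 8 carriers and channels for nucleotides, phosphate and creatine phosphate were called lower (median -1.44); library totals gave 5 lower and 1 higher (median -0.86). Within that list Ckmt2, the mitochondrial creatine kinase, was at -2.04 and the heart ADP/ATP carrier Slc25a4 at -1.93. Slc25a5, the ADP/ATP carrier of other tissues, was at -0.32, and at 0.27 under library totals, where it was called higher (adjusted p = 0.0263); it was chosen after its values were seen. Of 6 genes that shape the inner membrane 5 were called lower (median -1.40), or 4 under library totals; Apoo (-1.67) had the largest fall and Immt (-1.42) the smallest adjusted p.

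Of 17 regulators of nuclear respiratory genes, 13 were called lower at 72 h and 3 higher (median -0.70), or 7 and 5 under library totals. Mef2d (-0.94), Esrra (-1.25) and Tfb2m (-1.06) had the smallest adjusted p. Chosen after their values were seen, the coactivator Ppargc1a was at -1.84, and Nrf1 (0.30), Gabpb1 (0.46) and Pprc1 (0.84) were the 3 called higher. The cardiomyocyte lists gave 12 of 12 contractile genes (median -1.56) and 7 of 7 calcium handling genes (median -1.40) called lower at 72 h, close to the members' median. The median over all genes tested was 0.03. Endothelial markers had 5 of 8 called lower and 1 higher (median -0.44, and 0.15 under library totals), and smooth muscle and pericyte markers 4 lower and 3 higher of 8 (median -0.43, and 0.16). Lymphocyte markers had 5 of 6 called higher, red blood cell markers 5 of 5 lower and atrial markers 1 of 3 higher (Nppa). Under library totals 5, 1 and 1 were called in those directions.

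**Figure D5:**
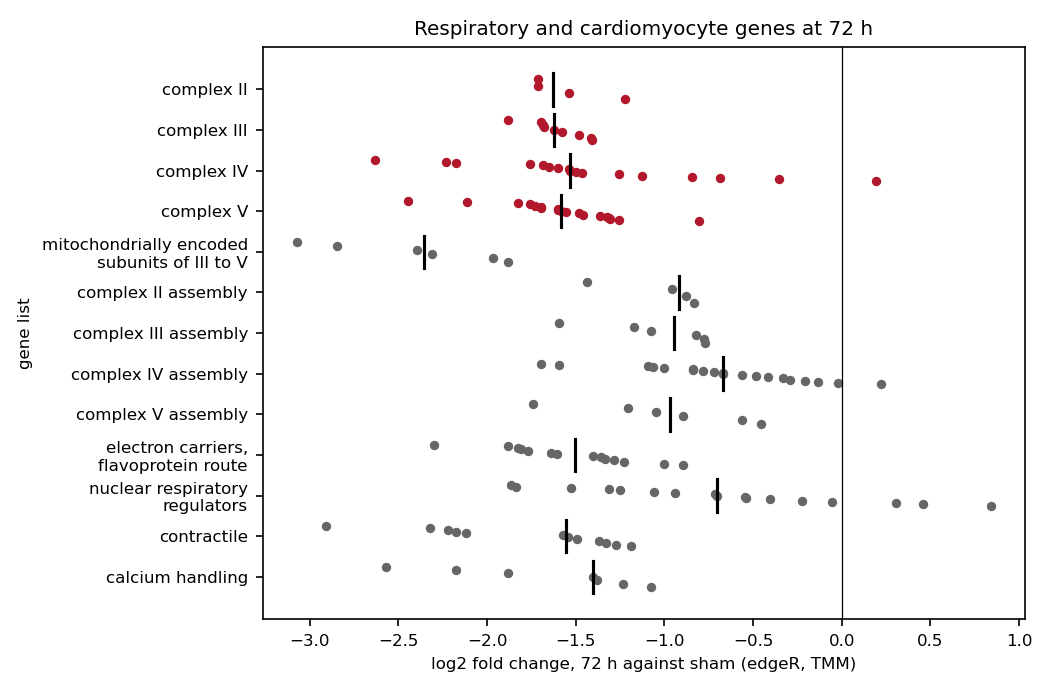
Log2 fold change at 72 h against sham (x axis, edgeR with TMM) of each gene in 13 lists (rows), with members in red, other lists in grey and a black bar at each list's median. The 4 member rows have medians of -1.63 to -1.53, the assembly rows lie closer to 0, and the mitochondrially encoded subunits lie furthest left at -2.35.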

How the data were processed

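The authors deposited read counts per Ensembl gene and FPKM (length-scaled fragments per library total), for the series and for each sample, with 0 values differing between them. The submitters' processing notes name cutadapt 1.18, HISAT2 2.1.0, featureCounts and build mm10; the annotation, the use of strand and the treatment of multiply mapping reads are not given in the sources used here. The deposited FPKM columns of replicates 2 and 3 at 6 h held each other's counts, which stay within 1 group. Libraries were poly(A)-selected with no molecular identifiers, per the labels' protocols. Symbols and positions came from GENCODE annotation of build GRCm38 (94 IDs had no symbol), and promoters from RefSeq.

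Counts were fitted with edgeR 4.0.16 in R 4.3.3 (filterByExpr, TMM, robust glmQLFit, glmQLFTest), 1 mean per group over all 18 libraries; the SE is the size of the log2 fold change over the square root of F. A second fit was scaled by 12 contractile genes. Isoform ratios used counts + 0.5. Levels are TMM-scaled CPM, computed here. The scripts were tested on simulated data. The members, lists, tests and alternatives were chosen with earlier results of these data known. Values per library were given for both genes of 4 isoform pairs and, per complex, for the 2 members with the smallest and the 2 with the largest p at 72 h; members outside this rule are said to be chosen after their values were seen. Alternatives were DESeq2 1.42.0, limma 3.58.1 on log2(FPKM + 1) and log2(FPKM + 0.1), other scalings and filters, the 2 groups alone, a replicate block and leaving out each library. Exons of some members overlap those of antisense genes, whose own mean counts reached at most 5.19% of the member's mean count (Gabpa at Atp5j). How many reads strand-blind counting would add to or take from the members was not tested.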

Additional observations from a re-analysis of the deposited data

Results flagged for a closer look

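Values differed between time points after ligation by the direct test of one time against the next. From 6 h to 24 h, 42 of the 49 members differed (all lower, edgeR adjusted p under 0.05), and from 24 h to 72 h, 45 differed (all lower). The median log2 change was -0.58 in the first step and -1.01 in the second. Among genes called in neither step, Cox6a1 and Cox8a had 72 h against 24 h values of 0.19 and -0.11.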

How the results depend on the processing

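No single-library omission or alternative setting turned the sign of an isoform ratio. Without 1 library at a time, the 72 h minus sham log2 difference ran from -2.56 to -2.38 for Cox6a2 over Cox6a1, -1.31 to -1.11 for Cox7a1 over Cox7a2, -2.05 to -1.75 for Cox8b over Cox8a and 0.50 to 0.63 for Cox4i2 over Cox4i1. Members called ranged from 36 to 44 at 24 h, 47 to 48 at 72 h, 35 to 42 from 6 h to 24 h and 45 to 46 from 24 h to 72 h. Relative to contractile genes the ranges were 4 to 11 at 24 h and 21 to 28 at 72 h.

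From 6 h to 24 h, 42 became 19 with library totals, 19 with limma on log2(FPKM + 1), 19 on log2(FPKM + 0.1) and 2 when only these groups were fitted. At 6 h, 0 became 1 with library totals and with limma under both pseudocounts, and at 1 h, 0 became 1 with the compared groups alone. Relative to contractile genes, 0 became 1 at 6 h with at least 10 counts in every library. At 24 h, 6 became 14 with calcium handling genes as the scale, 2 with no filter on low counts and 11 without replicate 2; at 72 h, 27 became 17 with calcium handling genes and 16 with no filter. Cox8a at 72 h turned to 0.23 with library totals and with limma under both pseudocounts, which scale to library totals. The cause was not tested for Cox8a or for any other turned or lost call. Of 598 values for single genes under alternatives, 561 kept their direction and side of the threshold.

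Deviations of same-numbered libraries correlated from -0.26 to 0.25 over 45 pairs (median 0.04), against a median of -0.01 for different numbers. Of the 18 libraries, 11 correlated better with their own number. Whether same-numbered libraries were paired was not tested. A replicate block left the calls at 43 (24 h), 48 (72 h), 42 and 45, and at 0, 6 and 27 relative to contractile genes. Depth of 18.2 to 25.1 M counts limits Cox6b2, Cox4i2 and the pseudogenes most.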
